A study of Mus musculus with 72 samples.

Results

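The genes described here act in DNA damage signaling and DNA repair, and their expression was followed in mouse hearts across 15 exposure groups. They were taken from a list of 42 gene symbols covering break sensing, the chromatin response at breaks, homologous recombination, end joining, base excision and single-strand break repair, nucleotide excision repair and mismatch repair. A probe set was found for 39 of the 42, among 19505 genes tested, and Xrcc2, Parp1 and Ercc2 were not analysed here. Hearts were collected 16 months after exposure, and their RNA was hybridised to 72 Clariom S Mouse arrays, microarrays that read each gene with a set of probes along its transcript. All mice were female CB6F1/Hsd animals, 100 to 120 days old when exposed. They received a single full-body exposure to Cs-137 gamma rays at 40, 80, 120 or 160 cGy, to silicon ions (Si, 260 MeV/n, linear energy transfer of about 70 keV/µm) at 4, 8, 16 or 32 cGy, or to titanium ions (Ti, 1000 MeV/n, about 100 keV/µm) at 3, 6.5, 13 or 26 cGy. Each radiation type had a sham group of its own, held in the same kind of boxes without irradiation. A group held 5 arrays, except that the Cs 160 cGy, Si sham and Ti 6.5 cGy groups held 4. The hearts came from an archive, each array holds whole-heart RNA, and the labels number the replicates without naming animals, so that p-values measure the spread between these arrays. In whole tissue, fewer cells of a type and less RNA per cell cannot be told apart.

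Cells recognise broken DNA through the Mre11-Rad50-Nbn complex, which recruits the kinase Atm, while the kinase Atr responds to stretches of exposed single strands. Mdc1 and the ubiquitin ligases Rnf8 and Rnf168 then mark the chromatin around the break, and the ends are either ligated directly by end joining or copied from the sister chromatid by homologous recombination. Bases damaged by oxidation and nicks are handled by base excision repair, and bulky lesions by nucleotide excision repair. Most cardiomyocytes of an adult heart no longer divide, and homologous recombination needs a sister chromatid.

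Promoter sequences were available in RefSeq (GRCm38.p6) for 8 of the 11 genes that passed the test in some comparison below. Those of 4 of them are shown, chosen by their calls. Of these genes 3 (Lig4, Xpa and Mre11a) were called higher after Ti 6.5 cGy, against the same sham hearts. Rnf8 gave a call that was kept whichever array was left out. The 180 bases before the start of transcription are given in the direction of the gene. Capitals mark GC boxes (GGGCGG on either strand), to which Sp1-like factors are known to bind. Lig4 has another promoter in RefSeq, chr8:9977681-9977860, which is not shown and held 0 GC boxes.
Lig4, chr8:9976312-9976491, minus strand: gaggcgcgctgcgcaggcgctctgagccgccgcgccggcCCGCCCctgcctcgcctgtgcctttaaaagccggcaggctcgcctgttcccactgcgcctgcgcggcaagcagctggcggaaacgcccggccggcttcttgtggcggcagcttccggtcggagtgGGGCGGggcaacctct
Xpa, chr4:46196312-46196491, minus strand: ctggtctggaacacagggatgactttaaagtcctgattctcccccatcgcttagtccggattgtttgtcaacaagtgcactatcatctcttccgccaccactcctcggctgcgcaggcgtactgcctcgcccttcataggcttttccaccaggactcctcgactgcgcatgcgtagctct
Mre11a, chr9:14784474-14784653, plus strand: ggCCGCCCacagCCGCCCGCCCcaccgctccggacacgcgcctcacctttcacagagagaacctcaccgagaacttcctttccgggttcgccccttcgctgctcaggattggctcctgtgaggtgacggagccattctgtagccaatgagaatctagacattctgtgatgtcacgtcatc
Rnf8, chr17:29614609-29614788, plus strand: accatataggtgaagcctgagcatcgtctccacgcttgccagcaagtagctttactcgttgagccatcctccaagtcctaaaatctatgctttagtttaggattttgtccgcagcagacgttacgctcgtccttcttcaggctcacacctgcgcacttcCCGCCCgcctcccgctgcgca
In a window from 250 bases before to 50 after the start, GGGCGG was present in the promoters of 24 of 33 listed genes (72.7%), against 38.2% of 27025 genes. The E-box CACGTG, bound by the clock factors Clock and Arntl, was present in 5 of 33 (15.2%) against 8.09%, namely Xrcc5, Lig1, Lig3, Parp2 and Apex1. Neither E2F motif (TTTCCCGC or TTTGGCGC, present in 1.8% of genes) lay in the promoters of the 8, and 6 of the 33 held one. The D-box TTATGTAA was found in 0 of 33 and in 1.11% of all genes. All motifs were searched on both strands, and a match is a description of the letters in the window only.

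Most of the genes gave a signal over background in these hearts, although often a low one. On all 72 arrays, 35 of the 39 exceeded the negative control probe sets at their median. With a stricter limit, the 90th percentile of the negative controls, 21 of 39 (53.8%) were detected on at least 36 arrays, against 47.0% of all genes, while 11 were detected on all arrays and 7 on none. The 7 were all genes of recombination or replication-linked ligation, namely Brca1, Brca2, Palb2, Bard1, Rad52, Rad54l and Lig1. Brca1, which directs breaks to recombination, did not exceed the median of the negative controls on any array of the Cs 160 cGy and Ti 6.5 cGy groups, nor did Palb2, its partner, in the Si 16 cGy group, and no difference is given for them there. Of the 14 measured proliferation genes, 0 were called in any exposure or sham comparison, where up to 6.91% of all genes were called. Cdk1 and Bub1 of that list lay at background throughout the Cs 160 cGy and Ti 6.5 cGy groups and the 3 sham groups. The heart markers Myh6, Tnnt2, Tnni3 and Actc1 were detected on all 72 arrays. The residual SD of a listed gene within groups and batches ran from 0.10 to 0.35 on the log2 scale, with a median of 0.21 against 0.22 for all genes.

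The arrays were processed in 2 batches that the labels name, 43 arrays in batch 1 and 29 in batch 2, and the batches differed in most of these genes. Between batches 29 of 39 (74.4%) were called, against 65.2% of all genes, with Mre11a higher in batch 2 by 0.52 on the log2 scale, Lig4 by 0.42 and Xrcc1 by 0.36, while Ddb2 fell by 0.50, Chek1 by 0.49, Prkdc by 0.38, Atr by 0.36 and Rnf8 by 0.29. Batch was therefore a term of every model. On the first principal component the 29 batch 2 arrays lay between 4.1 and 26.6 and 41 batch 1 arrays between -22.1 and -4.2. The remaining 2 arrays, Cs 160 cGy replicate 4 and Ti 6.5 cGy replicate 3, are labelled batch 1 but lay within the range of batch 2. Batch 2 held 0 arrays of Cs 160 cGy and 1 of Ti 6.5 cGy, and batch 1 held 0 of Si sham.

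One heart stood apart in the proliferation genes. In Si 16 cGy replicate 1 (batch 1) the 14 genes summed to 92.0, against 68.1 to 73.6 in the other hearts of that group and at most 74.1 in the other 71 hearts (sums of batch-corrected log2 values). The sum of 5 lymphocyte genes was 32.1 in the same heart and at most 25.2 in the others. Of the 39 listed genes 9 were higher there than in any other heart (23.1%, all genes 4.46%), namely Chek1, Mdc1, Brca1, Bard1, Rad54l, Xrcc6, Lig4, Ercc4 and Msh6. Chek1, the checkpoint kinase that acts below Atr, lay at 6.16 against 4.39 to 5.16 in the rest of the group, Lig4 at 5.72 against 4.69 to 5.13, and Xrcc6 at 7.59 against 6.82 to 7.07 (batch-corrected log2 values). The difference of Chek1 between Si 16 cGy and sham hearts was 0.18 ± 0.25 with this heart and -0.01 ± 0.19 without it, and 0 of 39 genes were called at Si 16 cGy either way. The heart was singled out after its values were seen, and its part in the other Si values was not tested beyond these fits.

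Across the 12 comparisons of a dose with its sham group, few of the genes changed. Of 468 tests of a listed gene, 7 passed an adjusted p of 0.25, the threshold of the study's methods, while 1.22% of the tests over all genes did. Of these 7, 4 were higher and 3 lower than in sham hearts, and all 7 fell in the Cs 160 cGy and Ti 6.5 cGy groups. None passed 0.05 (limma, Benjamini-Hochberg adjustment over all genes), and an unadjusted p under 0.05 was reached in 34 tests (7.26%), against 7.87% over all genes. At Cs 160 cGy 3 of 39 were called (7.69%, all genes 6.91%), 1 higher and 2 lower, while 3.12% of all genes were called higher and 3.78% lower. At Ti 6.5 cGy 4 of 39 were called (10.3%, all genes 5.60%), 3 higher and 1 lower, against 2.72% and 2.88% of all genes. In the other gamma-ray comparisons 0 of 39 were called, where 0.220% of all genes passed at 40 cGy, 0.482% at 80 cGy and 0.682% at 120 cGy. In the Si comparisons 0 of 39 were called as well, while the share of all genes was 0.159% at 4 cGy, 0.128% at 8 cGy, then 0.0205% at 16 cGy and 0.0513% at 32 cGy. The other Ti comparisons also gave 0 of 39, with 0.0103% of all genes at 3 cGy, 0.426% at 13 cGy and 0.00% at 26 cGy. The median half-width of the 95% interval of a difference was 0.26 for Cs 40 to 120 cGy, 0.32 for Si and 0.25 for Ti 3, 13 and 26 cGy on the log2 scale.

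**Figure D1:**
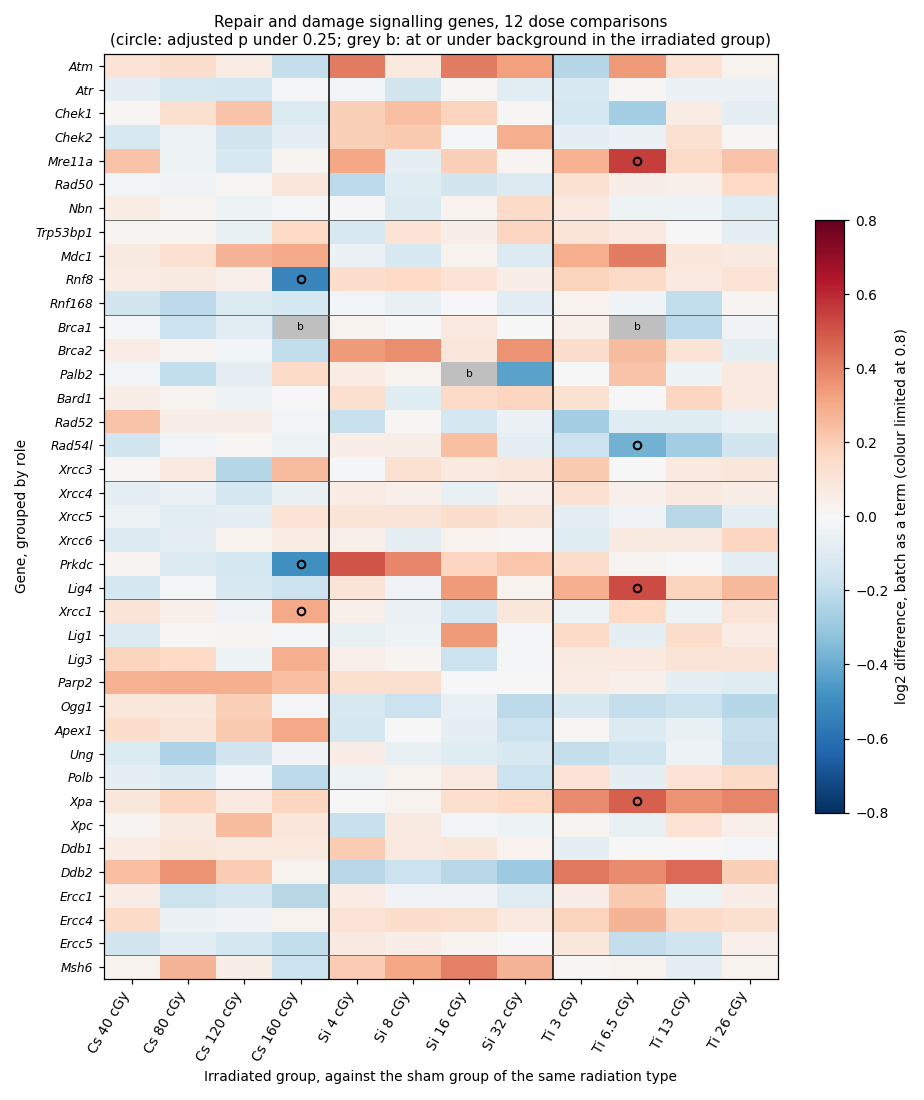
Log2 difference (colour) of 39 repair and damage signalling genes (rows, ordered by role) between each irradiated group (columns) and the sham group of its radiation type, with processing batch as a term. Circles mark the 7 differences with an adjusted p under 0.25, which lie in the Cs 160 cGy and Ti 6.5 cGy columns, and grey cells with a b mark groups at or under the negative controls on every array.

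Among the break sensors and checkpoint kinases, Mre11a, the nuclease of the complex that first binds broken ends, was the only one of 7 called in a dose comparison. In the Ti sham hearts Mre11a lay at 3.97, 4.22 and 3.53 in batch 1 and at 5.26 and 4.89 in batch 2 (quantile-normalized log2 values, here and below). In the Ti 6.5 cGy hearts it lay at 4.52, 4.51 and 5.31 in batch 1 and at 4.92 in batch 2. Each of the 3 batch 1 hearts lay above the batch 1 sham hearts, while the batch 2 heart lay between its sham hearts. The difference was 0.55 ± 0.19 (SE, 95% interval 0.15 to 0.94, adjusted p = 0.218). The heart at 5.31 is replicate 3, the array that lies with batch 2, and Mre11a is the listed gene with the highest rise from batch 1 to batch 2. Without that array and its Cs counterpart the difference was 0.33 ± 0.17 (adjusted p = 0.502). Mre11a exceeded the 90th percentile of the negative controls on 3 arrays, none of them in the Ti 6.5 cGy group. Rad50, which holds the complex together, and Nbn, its signaling subunit, were detected on all arrays and were called at no dose. The kinases Atm, Atr, Chek1 and Chek2 were also called at no dose. Atm differed from its sham group by 0.41 ± 0.24 after Si 4 cGy and by 0.34 ± 0.20 after Ti 6.5 cGy, with 95% intervals that included 0.

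Rnf8, a ubiquitin ligase that marks the chromatin next to a break, fell by 0.53 ± 0.14 after Cs 160 cGy (95% interval -0.81 to -0.25, adjusted p = 0.0875). It lay at 5.35, 5.36, 5.81 and 5.55 in the 4 irradiated hearts, all labelled batch 1. The sham hearts lay at 6.42, 5.98 and 5.91 in batch 1 and at 5.76 and 5.38 in batch 2. The irradiated hearts were below all batch 1 sham hearts and overlapped those of batch 2. Of all 15 groups Cs 160 cGy had the lowest batch-corrected mean of Rnf8, 5.37, while the other gamma-ray doses lay close to sham. With each of the 24 Cs arrays left out in turn the call was kept, with adjusted p from 0.041 to 0.209. The call was also kept without the 2 discordant arrays (-0.54, adjusted p = 0.126). It was lost when these arrays were counted to batch 2 (-0.42, adjusted p = 0.287) and within batch 1, where the difference was -0.59 ± 0.15 (adjusted p = 0.323). The values as deposited, aligned array medians, no batch term and batch as a random block lost it too. Of 13 alternative settings 6 kept the call. Batch 2 hearts had less Rnf8 in the study as a whole, the direction of the difference at Cs 160 cGy. The discordant Cs 160 cGy array lay at 5.55, and the lowest of that group at 5.35 and 5.36. The part of batch in the difference was not tested beyond these fits. The other chromatin genes, the scaffolds Mdc1 and Trp53bp1 and the ligase Rnf168 that extends the Rnf8 mark, were called at no dose. Mdc1 differed by 0.41 ± 0.19 after Ti 6.5 cGy (adjusted p = 0.346), and was called there with batch 1 arrays only (all genes 14.0%).

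Among the 7 genes of homologous recombination, Rad54l, a motor protein that helps the strand exchange, was called lower after Ti 6.5 cGy (-0.38 ± 0.14, adjusted p = 0.226). Sham hearts lay at 4.46, 4.18 and 4.38 in batch 1 and at 4.45 and 4.27 in batch 2, and irradiated hearts at 4.14, 3.87 and 3.61 in batch 1 and at 4.26 in batch 2. The 3 batch 1 hearts were below all sham hearts. Rad54l exceeded the 90th percentile of the negative controls on no array, and the heart at 3.87 was at or under their median. Without the array at 3.61, one of the 2 discordant ones, and its Cs counterpart, the difference was -0.26 (adjusted p = 0.488). Rad54l lay below sham in the mean of the 4 Ti doses as well (-0.25 ± 0.10, adjusted p = 0.343), which did not pass. Xrcc3, a recombination cofactor and the gene of this set that was detected on all arrays, was not called at any dose. Without the discordant arrays it was called at Cs 160 cGy (0.41 ± 0.13, adjusted p = 0.183).

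In end joining, Prkdc and Lig4 were called, each at a different exposure. Prkdc encodes the catalytic subunit of the DNA-dependent protein kinase. It lay at 5.88, 6.03 and 5.91 in the batch 1 sham hearts of the Cs series, at 5.25 and 5.01 in those of batch 2, and at 4.78, 5.71, 5.69 and 5.20 after Cs 160 cGy. All irradiated hearts were thus below the batch 1 sham hearts, and the lowest are replicate 1 and replicate 4. The difference of -0.49 ± 0.18 (adjusted p = 0.234) was kept in 7 of the 24 fits that leave out 1 array, and without the discordant arrays it was -0.44 (adjusted p = 0.378). Prkdc is among the genes that were lower in batch 2. In the Si series Prkdc was higher than sham by 0.50 ± 0.16 at 4 cGy and 0.39 ± 0.16 at 8 cGy, neither of which passed (adjusted p = 0.616 and 0.859).

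Lig4, the ligase that seals the joined ends, was higher after Ti 6.5 cGy by 0.52 ± 0.15 (95% interval 0.20 to 0.83, adjusted p = 0.165). Its values were 3.84, 4.22 and 3.77 in batch 1 and 4.95 and 4.89 in batch 2 among the sham hearts. After Ti 6.5 cGy they were 4.60, 4.59 and 4.76 in batch 1 and 5.09 in batch 2. Within each batch the irradiated hearts lay above the sham hearts. The batch 1 sham hearts were low, and Ti sham had the lowest batch-corrected mean of Lig4 among the 15 groups (4.38). The batch 1 difference was 0.71 ± 0.16 (adjusted p = 0.0851), and that of batch 2, with 1 irradiated heart, was 0.17 ± 0.23. Lig4 exceeded the 90th percentile of the negative controls on 1 array. Without the discordant arrays the difference was 0.47 (adjusted p = 0.338). Xrcc4, the partner of Lig4, and Xrcc5 and Xrcc6, which form the ring that holds the ends, were called at no dose. Xrcc5 differed by -0.22 ± 0.09 after Ti 13 cGy (adjusted p = 0.458).

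**Figure D2:**
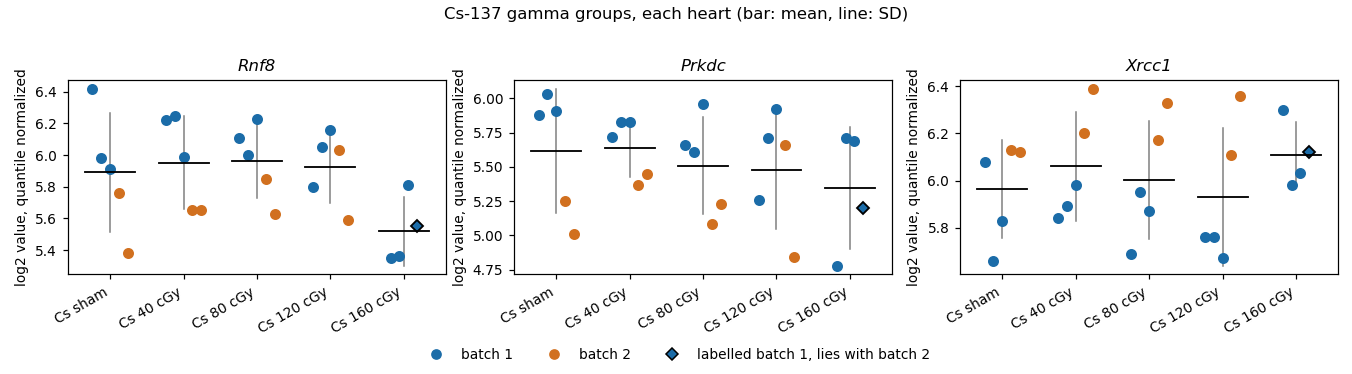
Quantile-normalized log2 values of Rnf8, Prkdc and Xrcc1 in each heart of the 5 Cs-137 groups, coloured by processing batch, with the group mean (bar) and SD (line). The Cs 160 cGy hearts are all labelled batch 1, and the diamond is the one array that lies with batch 2.

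In base excision and single-strand break repair, Xrcc1, the scaffold that gathers the enzymes at a nick, was higher after Cs 160 cGy by 0.30 ± 0.10 (95% interval 0.10 to 0.50, adjusted p = 0.17). The irradiated hearts lay at 6.30, 5.98, 6.03 and 6.12. The sham hearts lay at 6.08, 5.66 and 5.83 in batch 1 and at 6.13 and 6.12 in batch 2, so that the irradiated hearts overlapped the sham hearts of either batch. Within batch 1 the difference was 0.25 ± 0.12 (adjusted p = 0.544), and with the discordant arrays counted to batch 2 it was 0.19 (adjusted p = 0.552). Without these arrays the call was kept (0.30 ± 0.11, adjusted p = 0.24). Xrcc1 is among the genes that were higher in batch 2.

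Parp2, which senses nicks and adds ADP-ribose chains there, was not called at any dose, but its mean lay above that of Cs sham in all 4 gamma-ray groups. The Cs sham hearts held Parp2 at 5.62, 5.77, 5.52, 5.60 and 5.64, and Cs 40 cGy hearts at 5.98, 6.08, 5.88, 5.92 and 5.72. The differences were 0.28 ± 0.11 at 40 cGy (adjusted p = 0.87), 0.29 ± 0.11 at 80 cGy (adjusted p = 0.59) and 0.29 ± 0.11 at 120 cGy (adjusted p = 0.513). In the mean of the 4 doses it was 0.28 ± 0.09 (adjusted p = 0.379). Of all 15 groups the Cs sham hearts had the lowest batch-corrected mean of Parp2, 5.63, and the highest was that of Si 8 cGy, 6.02. The 4 gamma-ray comparisons share the same 5 sham hearts. The glycosylases Ogg1 and Ung, which cut out oxidised bases and uracil, the endonuclease Apex1, the polymerase Polb and the ligases Lig1 and Lig3 were called at no dose in the main fits. Apex1 was called at Cs 160 cGy without the discordant arrays (0.42 ± 0.15, adjusted p = 0.24). Polb was called at Si 32 cGy with the array median as a covariate (all genes 7.54%). Ogg1 differed by -0.23 ± 0.09 after Ti 26 cGy (adjusted p = 0.645).

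In nucleotide excision repair, Xpa, which verifies the lesion and positions the incision complex, was higher after Ti irradiation. The Ti sham hearts held Xpa at 5.35, 5.95 and 5.46 in batch 1 and at 6.25 and 6.01 in batch 2. After Ti 6.5 cGy it lay at 6.32, 6.46 and 6.21 in batch 1 and at 6.09 in batch 2. In batch 1 the irradiated hearts lay above the batch 1 sham hearts, and in batch 2 the irradiated heart lay between the sham hearts. The difference was 0.48 ± 0.14 (95% interval 0.18 to 0.77, adjusted p = 0.172). At the other doses Xpa lay above sham by 0.38 ± 0.13 at 3 cGy, 0.36 ± 0.13 at 13 cGy and 0.39 ± 0.13 at 26 cGy, none of which passed alone (adjusted p = 0.461, 0.429 and 0.585). The mean of the 4 Ti doses differed from sham by 0.40 ± 0.11 (95% interval 0.18 to 0.62, adjusted p = 0.196), the only one of 39 genes called there (2.56%, all genes 1.75%).

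The difference of Xpa between Ti doses and sham was not alike in the 2 batches, and what it rests on was not tested. Within batch 1 the mean of the doses was 0.63 ± 0.13 above sham (adjusted p = 0.108) and within batch 2 it was 0.02 ± 0.11 (adjusted p = 0.99). Leaving out Ti sham replicate 1 or 3 lost the call, as did leaving out Ti 6.5 cGy replicate 2, with adjusted p from 0.103 to 0.58 over the 24 fits. Ti sham had the lowest batch-corrected mean of Xpa of all 15 groups, 5.80, and the Cs and Si sham hearts lay between 5.81 and 6.29. The call on the mean of the doses was kept without the 2 discordant arrays (0.40, adjusted p = 0.184) and with these counted to batch 2 (0.40, adjusted p = 0.159). The batch difference of Xpa was -0.03.

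**Figure D3:**
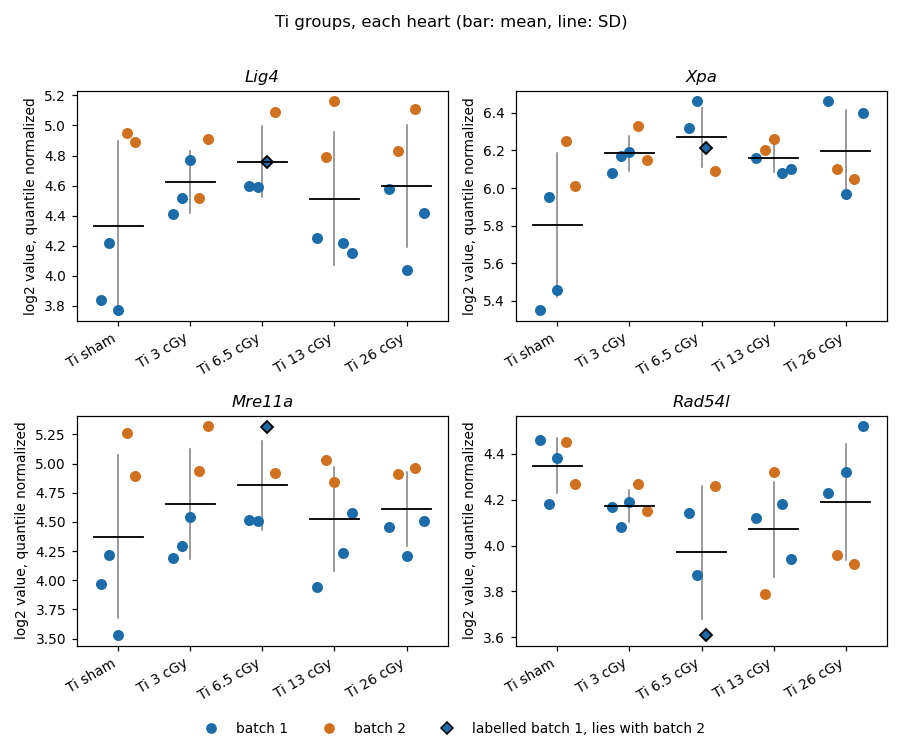
Quantile-normalized log2 values of Lig4, Xpa, Mre11a and Rad54l in each heart of the 5 Ti groups, coloured by processing batch, with the group mean (bar) and SD (line). The batch 1 sham hearts are low for Lig4, Xpa and Mre11a, and the diamond is the Ti 6.5 cGy array that lies with batch 2.

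Ddb2, which finds ultraviolet lesions, was called at no dose and exceeded the 90th percentile of the negative controls on 4 arrays. It differed from sham by 0.42 ± 0.20 after Ti 3 cGy and by 0.45 ± 0.20 after Ti 13 cGy (adjusted p = 0.555 and 0.539), by 0.36 ± 0.16 after Cs 80 cGy (adjusted p = 0.691) and by -0.29 ± 0.13 after Si 32 cGy (adjusted p = 0.777). The lesion sensor Xpc, the adaptor Ddb1 and the incision nucleases Ercc1, Ercc4 and Ercc5 were called at no dose in the main fits. After a filter on dim genes, Ercc1 and Ercc5 were called at Cs 160 cGy (all genes 15.6%). Ercc4 and Ercc5 were called at Ti 6.5 cGy with that filter (all genes 13.2%). With batch 1 arrays only, Ercc4 and Ddb2 were called at Ti 6.5 cGy (all genes 14.0%). Ercc4 was also called there with the replicate number as a block (all genes 6.04%). Ercc5 differed by -0.20 ± 0.09 at Cs 160 cGy (adjusted p = 0.314) and by -0.19 ± 0.09 at Ti 6.5 cGy (adjusted p = 0.341). Msh6, the mismatch sensor, differed by 0.40 ± 0.18 at Si 16 cGy (adjusted p = 0.999) and 0.32 ± 0.18 without the Si heart that stood apart, and was called nowhere.

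No linear relation to dose passed the test. A straight line on dose called 0 of 39 genes for Cs (1.55% of all genes), 0 for Si (0.00%) and 0 for Ti (0.00%), with 5, 2 and 2 genes at an unadjusted p under 0.05 (10.5%, 5.13% and 5.65% of all genes). For Cs, Ercc1 had the lowest adjusted p (slope -0.02 per 10 cGy, adjusted p = 0.299), and Prkdc had a slope of -0.03 per 10 cGy (adjusted p = 0.331). In the mean of the 4 doses 0 of 39 were called for Cs (0.661%) and 0 for Si (0.128%). An F test over all 15 groups called 0 of 39 (6.06% of all genes), the lowest adjusted p being that of Rnf8, 0.272. The test of whether the mean dose effect differed between radiation types also called 0 (1.63% of all genes), so the rise of Xpa after Ti was not shown to differ from its change after Cs or Si.

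The sham groups, which received no radiation, also differed from each other. Between Cs and Si sham hearts 2 of 39 genes were called (5.13%, all genes 5.67%), with Rnf168 higher in Cs sham by 0.28 ± 0.10 (adjusted p = 0.191) and Parp2 lower (-0.31 ± 0.12, adjusted p = 0.223). Rnf168 lay at 7.62, 7.43, 7.47, 7.37 and 7.44 in Cs sham and at 7.05, 6.84, 7.15 and 7.27 in Si sham, with no overlap. Rnf168 was lower in batch 2 by 0.18, however, and with the batch difference removed it ran from 7.34 to 7.54 in Cs sham and from 6.93 to 7.36 in Si sham, which overlapped. Parp2, given above for Cs sham, lay at 5.90, 5.97, 6.11 and 5.83 in Si sham, with no overlap before or after removal of the batch difference (up to 5.77 in Cs sham and from 5.82 in Si sham). Between Si and Ti sham hearts 2 of 39 were called (5.13%, all genes 6.35%), both higher in Si sham, as were 2.93% of all genes. Ddb2 differed by 0.53 ± 0.19 (adjusted p = 0.188), with values of 4.96, 5.21, 5.21 and 5.40 in Si sham against 4.41, 5.44, 4.75, 5.37 and 4.86 in Ti sham, which overlapped. Rad50 differed by 0.29 ± 0.10 (adjusted p = 0.188), at 7.09, 6.89, 7.11 and 7.05 in Si sham and at 7.10, 6.72, 6.30, 6.75 and 6.97 in Ti sham. Between Cs and Ti sham 0 of 39 were called (0.113%). All Si sham arrays are batch 2, so within that batch each comparison keeps 2 hearts of the other type. There Rnf168 and Parp2 differed by 0.33 and -0.33 (adjusted p = 0.384 and 0.424), and Ddb2 by 0.08 (adjusted p = 0.922).

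**Figure D4:**
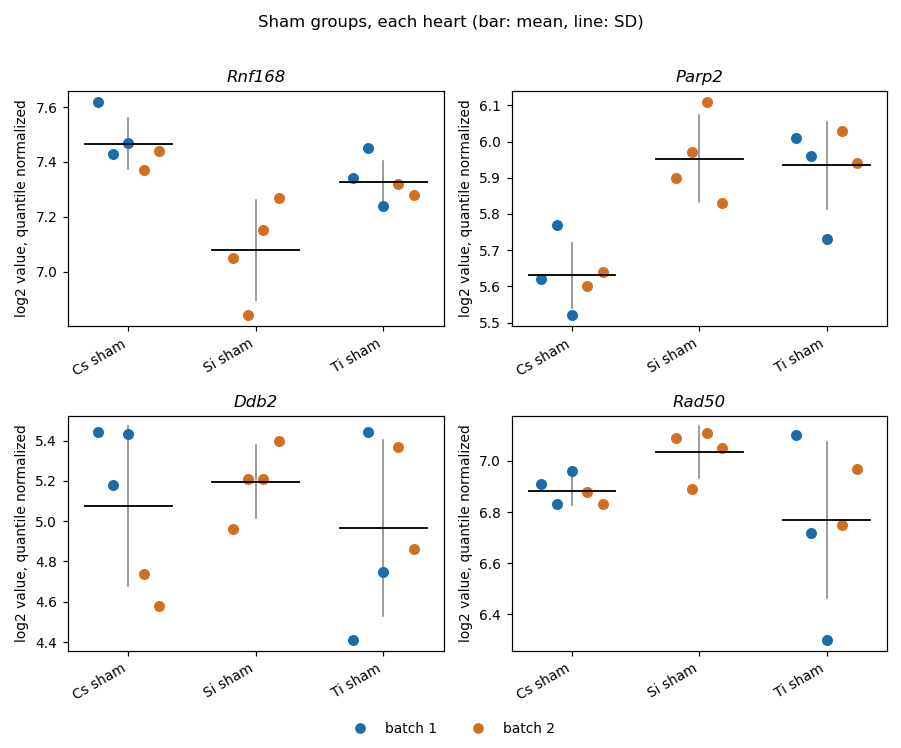
Quantile-normalized log2 values of Rnf168, Parp2, Ddb2 and Rad50 in each heart of the 3 sham groups, coloured by processing batch, with the group mean (bar) and SD (line). Without batch correction Rnf168 and Parp2 do not overlap between Cs and Si sham (with it Rnf168 does), while Ddb2 and Rad50 overlap between Si and Ti sham.

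Other measures also differed in the comparisons that held these calls, and the clock genes differed in further comparisons as well. The median of the deposited values of an array ran from 4.38 to 5.61 in Cs 160 cGy hearts and from 5.01 to 6.04 in Cs sham hearts. Its group median was 5.58 at Cs 160 cGy, all labelled batch 1, and 5.64 in the batch 1 Cs sham hearts. In batch 1 the array median ran from 5.63 to 5.84 after Ti 6.5 cGy and from 5.04 to 5.50 in Ti sham. After Ti 3 cGy, where 0 of 39 were called, it ran from 5.44 to 5.62 in batch 1. In Si sham the array median ran from 4.55 to 5.11. With this median as a covariate 2 of the 12 calls were kept, Rnf8 at Cs 160 cGy (-0.56, adjusted p = 0.11) and Ddb2 between Si and Ti sham (0.58, adjusted p = 0.184), and Xpa in the mean of the Ti doses stood at 0.36 (adjusted p = 0.332). Of 14 clock genes, 12 were called at Cs 160 cGy, 6 at Ti 6.5 cGy, 3 in the mean of the Ti doses, 12 between Cs and Si sham and 9 between Si and Ti sham. Arntl, the clock activator, had a mean of 7.46 in Cs sham and 5.20 after Cs 160 cGy, 7.03 in Ti sham and 5.53 after Ti 6.5 cGy, and 5.40 in Si sham. Clock genes were also called at doses where 0 of 39 listed genes were. There Arntl was called at Cs 40 cGy (-1.33), Cs 80 cGy (-0.64) and Cs 120 cGy (-2.11). It was also called at Si 4 cGy (2.24), Si 8 cGy (2.21), Si 32 cGy (1.83) and Ti 13 cGy (-1.32). Within groups the slope of a gene on Arntl was called for 0 of 39 (0.195% of all genes), and that of Xpa, known to follow the clock in mouse liver, was -0.07 ± 0.06 per log2 unit of Arntl (adjusted p = 0.998). How much the array level, the clock genes or the batch contributed to the calls was not tested beyond these fits.

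Some cell type markers were called in the same comparisons. Of all genes, 6.91% were called at Cs 160 cGy and 5.60% at Ti 6.5 cGy. Between Si and Ti sham 6.35% of all genes were called, and between Cs and Si sham 5.67%. No atrial, macrophage, lymphocyte or adipocyte marker was called in these comparisons. At Cs 160 cGy 1 of 7 ventricular genes (Myl3, -0.30) and 1 of 6 endothelial genes (Cldn5, -0.56) were lower, and Alas2, the 1 erythroid gene measured, was higher (0.95). The endothelial markers summed to between 50.8 and 52.1 there and to between 51.3 and 52.0 in Cs sham (sums of batch-corrected log2 values). Alas2 lay between 6.7 and 8.6 against 6.9 to 7.4. At Ti 6.5 cGy 2 of 5 fibroblast genes were lower, the collagens Col1a1 and Col3a1 (-0.38 and -0.63), and 1 of 5 hepatocyte genes was higher (Fgb, 0.69). The fibroblast sum ran from 40.6 to 43.9 there and from 40.9 to 44.4 in Ti sham, and the hepatocyte sum from 23.2 to 37.9 and from 22.9 to 25.2. Between Si and Ti sham 1 of 5 hepatocyte genes was higher in Si sham (Alb, 4.41), where the sum ran from 26.9 to 42.6. In the same comparison 1 of 6 endothelial genes was lower (Kdr, -0.32) and 1 of 7 ventricular genes higher (Myl2, 0.23) in Si sham. Between Cs and Si sham 2 of 6 endothelial genes were higher in Cs sham (Cldn5, 0.61, and Kdr, 0.39). The endothelial sum ran from 49.4 to 51.4 in Si sham and from 50.3 to 51.7 in Ti sham, and the ventricular sum from 83.8 to 84.4 and from 83.4 to 83.7. Of the ventricular, endothelial, fibroblast, hepatocyte and erythroid markers 0 lay under background throughout any of these groups, and their part in the calls was not tested.

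Further genes of the DNA damage response, 47 measured of 54 listed, gave 3 calls over the 12 dose comparisons. Of the tests over all genes 1.22% passed there. The share of all genes was 6.91% at Cs 160 cGy, 5.60% at Ti 6.5 cGy and 1.75% in the mean of the Ti doses. It was 5.67% between Cs and Si sham and 6.35% between Si and Ti sham. Wrn, a helicase of recombination and replication, and Rpa3, a subunit of the single-strand binding complex, were lower after Cs 160 cGy (-0.61 ± 0.15, adjusted p = 0.0836, and -0.51 ± 0.17, adjusted p = 0.171). Tipin, which protects the replication fork, was higher after Ti 6.5 cGy (0.39 ± 0.14, adjusted p = 0.247). The mean of the Ti doses called Uimc1, which binds the ubiquitin chains made by Rnf8 (0.34 ± 0.10, adjusted p = 0.244). Between sham groups Rpa2 and Rif1 were called, with Rif1 higher in Si than in Ti sham by 0.45 ± 0.13 (adjusted p = 0.0822). The median difference of this list was -0.05 at Cs 160 cGy and 0.09 at Ti 6.5 cGy, while that of the 39 genes was -0.007 and 0.023 and that of all genes -0.004 and -0.007.

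**Figure D5:**
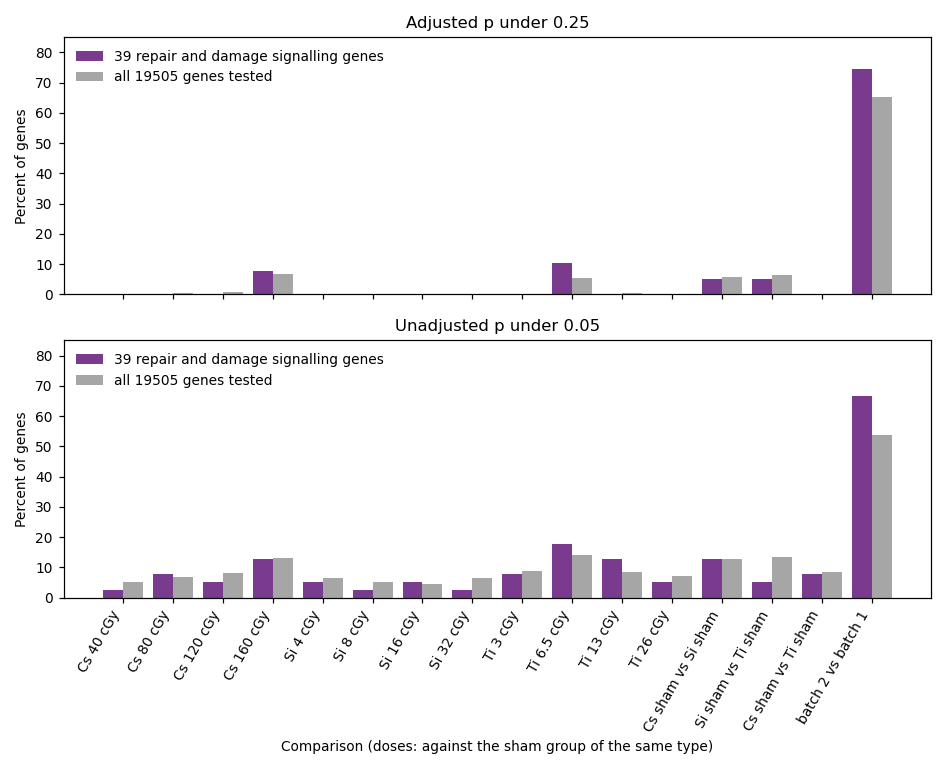
Percent of the 39 repair and damage signalling genes (purple) and of all 19505 genes tested (grey) with an adjusted p under 0.25 (upper panel) and an unadjusted p under 0.05 (lower panel) in 12 dose comparisons, 3 sham comparisons and the batch comparison. The batch comparison stands apart with 74.4% and 65.2% called, and the highest exposure bar is Ti 6.5 cGy with 10.3% against 5.60%.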

How the data were processed

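Heart RNA was labelled and hybridised to 72 Clariom S Mouse arrays. The authors processed the arrays with RMA (version not given in the sources used), and deposited log2 values for 29129 probe sets. Array medians of the deposited values ran from 4.17 to 6.35, a level difference that would enter every contrast, so the 22206 transcript-cluster probe sets were quantile normalized with limma 3.58.1 in R 4.3.3. The number of arrays limits the precision.

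Gene symbols came from the platform annotation. Of the transcript-cluster probe sets 19572 had 1 symbol and 2634 had none, and for 55 genes with several probe sets the one with the highest mean was kept. Background was read from 5222 negative control probe sets, and the 1324 positive controls were left out.

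Groups, doses and batches were taken from the labels. Each radiation type was fitted with limma (dose group and batch as terms, moderated statistics, 24 arrays), and sham, F, batch and Arntl comparisons used all 72 arrays. Adjusted p-values follow Benjamini-Hochberg over all genes of a comparison, and a gene was called at an adjusted p under 0.25, with counts at 0.05 beside it. Values per heart are given for genes called in any comparison other than batch. The genes, gene lists and alternatives were chosen with earlier results of these data known. The array median as a covariate was added after the data were seen. The script was tested on simulated data with known changes. Replicate numbers were shared between groups, but same-numbered arrays did not deviate together (26 of 138 pairs correlated over 0.1), so no pairing entered the fits.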

Additional observations from a re-analysis of the deposited data

Results flagged for a closer look

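In 12 of 195 groups tested (11 genes and 2 gene sums in 15 groups, values after batch removal), 1 heart stood apart from the others of its group by Dixon's test, near the 1 in 20 that chance gives. For Mre11a there were 5 such hearts. These were Cs 40 cGy replicate 2 at 5.25 (others 4.78 to 4.88), Si sham replicate 4 at 4.87 (others 4.25 to 4.34), Si 4 cGy replicate 3 at 4.74 (others 4.90 to 4.96), Si 8 cGy replicate 5 at 3.28 (others 4.68 to 4.97) and Ti 6.5 cGy replicate 3 at 5.57 (others 4.66 to 4.78). The last is the array labelled batch 1 that lies with batch 2. Rnf8 stood at 5.24 in Si sham replicate 1 (others 5.93 to 6.05). Xrcc1 stood at 6.18 in Cs 120 cGy replicate 5 (others 5.85 to 5.95). Ddb2 stood at 4.98 in Si 4 cGy replicate 1 (others 5.27 to 5.37). The summed proliferation genes stood at 92.0 in Si 16 cGy replicate 1 (others 68.1 to 73.6) and at 68.2 in Cs 160 cGy replicate 1 (others 70.5 to 71.0). The summed lymphocyte genes stood at 32.1 in Si 16 cGy replicate 1 (others 21.6 to 22.9) and at 24.5 in Si 32 cGy replicate 5 (others 21.8 to 22.4).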

How the results depend on the processing

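The counts of called genes (of 39) depended on the processing, and the cause was not tested. At Cs 160 cGy 3 were called, against 0 with the values as deposited, with array medians aligned, without a batch term, with batch 1 arrays only, with batch as a random block and with the 2 discordant arrays counted to batch 2, 1 with all 72 arrays in the same fit and with the array median as a covariate, 4 without the 2 arrays (Apex1 and Xrcc3 gained, Prkdc lost) and 5 after a filter on dim genes. At Ti 6.5 cGy 4 were called, against 23 with the values as deposited, 7 with batch 1 arrays only, 1 with batch as a random block, with the 2 arrays counted to batch 2 and with all 72 arrays, and 0 without a batch term, with batch 2 arrays only (1 irradiated heart, assumed to vary like the others), without the 2 arrays and with the array median as a covariate. For the mean of the Ti doses the 1 call became 6 with batch 1 arrays only and 0 with the values as deposited, aligned medians, no batch term, batch 2 only and the array median as a covariate. Between Cs and Si sham the 2 calls became 38 with the values as deposited, 5 without a batch term, 4 after the dim filter, 1 with the replicate block, and 0 with aligned medians, batch 2 only and the array median as a covariate. Between Si and Ti sham the 2 calls became 1 with the random block, the replicate block and the array median as a covariate, and 0 with the values as deposited, aligned medians, no batch term and batch 2 only. At an adjusted p under 0.05 each of these 5 counts was 0. Elsewhere the main count was 0. The values as deposited, whose arrays differ in level, called 14 at Si 32 cGy, 4 at Ti 3 cGy, 39 on the Si dose line, 36 among the 15 groups and 39 on Arntl. The array median as a covariate called 1 (Polb) at Si 32 cGy and on the Si dose line, batch 1 only called 7 between Cs and Ti sham, and the dim filter called 1 in the mean of the Cs doses, 2 on the Cs dose line and 2 among the 15 groups. Among the 15 groups 1 was called without the 2 arrays and with trend and robust moderation. The signs of Xrcc1 at Cs 160 cGy (-0.12), Parp2 between Cs and Si sham (0.34) and Rad50 between Si and Ti sham (-0.02) turned with the values as deposited, and those of Mre11a (-0.16) and Xpa (-0.05) at Ti 6.5 cGy with batch 2 only.

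The share of all genes moved as well. With the values as deposited it was 38.3% at Ti 6.5 cGy, 34.2% at Si 32 cGy, 93.3% between Cs and Si sham, 88.2% on the Si dose line and 99.9% on Arntl, with batch 1 arrays only 14.0% at Ti 6.5 cGy, 7.34% in the mean of the Ti doses and 11.4% between Cs and Ti sham, and after the dim filter 15.6% at Cs 160 cGy.

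With 1 array left out in turn, the count ran from 1 to 4 at Cs 160 cGy, from 0 to 8 at Ti 6.5 cGy, from 0 to 5 in the mean of the Ti doses, from 0 to 3 between Cs and Si sham, from 0 to 2 between Si and Ti sham and among the 15 groups, and from 0 to 1 at Ti 3 cGy, at Ti 13 cGy, in the mean of the Cs doses, on the Cs dose line and for the difference between radiation types. The share of all genes in these fits is not given here. At Ti 6.5 cGy the calls of Lig4, Xpa, Mre11a and Rad54l were each lost without Ti sham replicate 1 or 3 or Ti 6.5 cGy replicate 2 or 3. With the replicate number as a block, 8 of the 12 calls were kept, and Prkdc and Xrcc1 at Cs 160 cGy, Parp2 and Ddb2 between sham groups were lost. Only 10 of the 72 arrays correlated best with an array of their own number. The dim filter left 32 of the 39 genes in the Cs fit, 33 in the Si fit and 31 in the Ti fit, and 2 of the 12 calls had no value there. Si could not be fitted in batch 1, which holds no Si sham array, nor Cs 160 cGy in batch 2.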
